A study of Rattus norvegicus with 6 samples.

Results

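In all, 10 genes of fatty acid uptake and oxidation were followed in the rat heart primordium across heartbeat initiation: Cd36, Fabp3, Lpl, Cpt1a, Cpt1b, Acadm, Acadvl, Hadha, Ppara and Ppargc1a. They were chosen by name, with earlier results of these data known. Every non-control probe annotated with one of the 10 symbols was taken, which gave 13 probes and 47 spots among the 30367 probes of the array. The primordia came from embryos of the Wister rat (the spelling of the labels) at E10, and global gene expression was read on 6 arrays, 3 for the pre-heartbeat group and 3 for the post-heartbeat group. The labels name no treatment or genetic change, and the study set the groups by shape and stage: the centre of the primordium was flat in the pre-heartbeat group and raised in the post-heartbeat group, whose embryos could have more somites. The groups thus differ in stage as well as in heartbeat, and these cannot be told apart. Whether a sample held 1 embryo or several is not given in the sources used here, so the p-values measure the spread between these samples, which may be technical in part. All levels below are log2 intensities from which the 75th percentile of the array was subtracted, so that 0 is the level of that percentile, and a fold change is the post-heartbeat level minus the pre-heartbeat level on this log2 scale.

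Long-chain fatty acids are the main fuel of the adult heart, whereas the early embryonic heart is known for its reliance on glucose and lactate. Lipoprotein lipase (Lpl) releases fatty acids from circulating triglyceride, Cd36 helps to carry them across the plasma membrane and Fabp3, the heart-type fatty acid binding protein, holds them in the cytosol. Carnitine palmitoyltransferases of the outer mitochondrial membrane (Cpt1a, the liver form, and Cpt1b, the muscle form) pass acyl groups to carnitine, and Acadvl, Acadm and Hadha act in the beta-oxidation spiral. Ppara, a nuclear receptor, and its coactivator Ppargc1a regulate many of these genes in the adult heart.

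Each probe is a stretch of 60 bases, and the values are those of that stretch of the transcript. The calls of Cd36 and Cpt1b below rest on their brighter probes, whose sequences are not shown. Shown are the probes of Fabp3 and Ppargc1a and the second probes of Cd36 and Cpt1b. They are written 5′ to 3′ as deposited, at positions on the rn4 genome given by the array annotation, and have no capitals because no base is singled out.
Fabp3 probe, chr5:149344170-149344229, + strand: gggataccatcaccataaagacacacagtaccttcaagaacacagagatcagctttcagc
Cd36 second probe, chr4:13522273-13522332, + strand: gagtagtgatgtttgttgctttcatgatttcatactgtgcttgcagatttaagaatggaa
Cpt1b second probe, chr7:127743961-127744020, - strand: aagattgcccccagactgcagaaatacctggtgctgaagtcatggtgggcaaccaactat
Ppargc1a probe, chr14:64365667-64365726, + strand: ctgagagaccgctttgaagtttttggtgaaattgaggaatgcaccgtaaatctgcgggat
The second probe of Cd36 lies on the same chromosome as the brighter one (chr4:13525426-13525485), and that of Cpt1b likewise (chr7:127737188-127737247 for the brighter one). Where a gene had 2 probes the brighter one stands for the gene, and the dimmer one is given beside it.

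Depth in the sense of reads has no equivalent on an array, and the number of arrays limits the precision. Between 39375 and 41327 of 58717 non-control spots were well above background on an array, and 0 were saturated. The arrays lay on 2 slides, with replicate 1 of both groups and post-heartbeat replicate 2 on slide 1 and the other 3 arrays on slide 2. The first principal component held 60.3% of the variance and separated the slides, and the second held 16.6% and separated the groups. The tested genes among the 10 are therefore given also with the slide as a block and within each slide. Other genes are given so where the block changed a call, and some where it moved the value. A probe was tested when every array of either group read it well above background, and 19299 probes (63.5%) met this. The median log2 fold change over these was -0.03, and 44.7% had a positive one.

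Of the 10 genes, 8 were tested, and Cpt1a and Ppara were not well above background on any of the 6 arrays. Signals of Cd36, Fabp3 and Cpt1b were between 1.56-fold and 1.70-fold higher in the post-heartbeat group, and all 3 post-heartbeat arrays exceeded all 3 pre-heartbeat arrays. Lpl was lower on all 3 post-heartbeat arrays by a smaller amount, and the enzymes Acadm, Acadvl and Hadha and the coactivator Ppargc1a had overlapping groups. By limma with Benjamini-Hochberg adjustment over all tested probes, 0 of the 8 genes had an adjusted p under 0.05, where 0.14% of all tested probes did. At an unadjusted p under 0.05 there were 4 (Cd36, Fabp3, Cpt1b and Lpl), where 7.01% of all tested probes were, and the methods' test gave the same 4 at that unadjusted threshold and 0 after adjustment. With the slide as a block, 1 of the 8 (Fabp3) passed, where 1.62% of all tested probes did, 1.16% as higher. Its limma adjusted p = 0.0496 lay at the threshold, and the percentile used decided the side on which it fell. The selection of the methods asks for at least 1.5 fold and for Tukey's HSD p below 0.05 without adjustment. It held 3 of the 8, all higher (Cd36, Fabp3 and Cpt1b), where 3.04% of all tested probes were selected, 1.89% as higher and 1.15% as lower. Groups without overlap were found for 4 of the 8 genes (3 higher and 1 lower), and for 11.5% of all tested probes (5.38% higher and 6.14% lower). The median log2 fold change of the 8 genes was 0.18, and 0.34 with the slide as a block, against -0.03 and -0.02 over all tested probes. The 8 genes were chosen with earlier results of these data known, so these shares describe them and are not a test. The shares also set genes, each by its brightest probe, beside all tested probes, dimmer probes of a gene included.

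**Figure D1:**
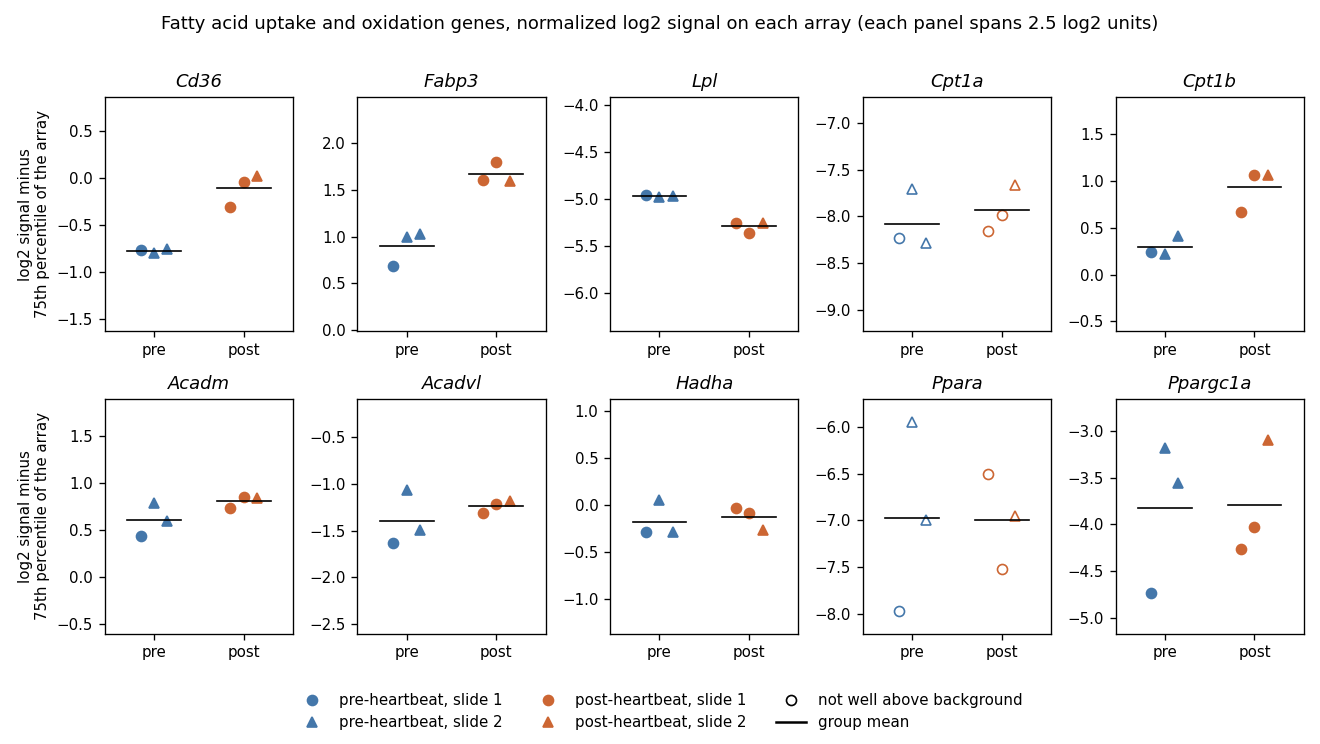
Normalized log2 signal (log2 intensity minus the 75th percentile of the array) of the brightest probe of each of the 10 genes on the 3 pre-heartbeat and the 3 post-heartbeat arrays, with circles for slide 1, triangles for slide 2, open symbols for probes not well above background and lines for group means. Cd36, Fabp3 and Cpt1b were higher on all 3 post-heartbeat arrays, Lpl was lower, and Cpt1a and Ppara have open symbols on all 6 arrays.

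Among the genes of uptake and binding, Fabp3 had the largest difference of the 8. Its level was 0.68, 0.99 and 1.03 on the pre-heartbeat arrays, replicates 1 to 3, and 1.61, 1.79 and 1.596 on the post-heartbeat arrays. The lowest post-heartbeat array was above the highest pre-heartbeat array. The log2 fold change was 0.76 (SE 0.16, 95% confidence interval 0.40 to 1.13), from 0.90 ± 0.19 to 1.67 ± 0.11 (SD, n = 3 arrays each), with a limma adjusted p = 0.169. In the fit blocked by slide it was 0.80 with a limma adjusted p = 0.0496. That value lies at the threshold, and was 0.0504 when spots marked as outliers were left out of the 75th percentile. The percentile was settled after both versions had been seen, so whether Fabp3 passes in this fit is not settled. Within slides the difference was 1.02 on slide 1 and 0.58 on slide 2. The exact permutation test gave p = 0.1 (two-sided), the smallest value that 3 arrays against 3 allow, for Fabp3, Cd36, Cpt1b and Lpl.

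Cd36, the membrane protein that binds long-chain fatty acids, had nearly the same level on the 3 pre-heartbeat arrays. The levels were -0.77, -0.80 and -0.76 there and -0.30, -0.04 and 0.03 on the post-heartbeat arrays, of which replicate 1 was the lowest. The log2 fold change was 0.67 (SE 0.14, 95% confidence interval 0.33 to 1.01), from -0.77 ± 0.02 to -0.10 ± 0.17 (SD, n = 3 arrays each), with a limma adjusted p = 0.192. Blocking by slide gave 0.70 (limma adjusted p = 0.0661), and the difference was 0.60 within slide 1 and 0.80 within slide 2. The second probe, whose sequence is given above, was also higher on all 3 post-heartbeat arrays. It read -3.80, -2.95 and -3.62 on the pre-heartbeat and -2.83, -2.65 and -2.52 on the post-heartbeat arrays, a log2 fold change of 0.79 (limma adjusted p = 0.406). In the fit blocked by slide this was 0.91 (limma adjusted p = 0.0872).

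Lpl, the secreted lipase, was dim but well above background on all 6 arrays, and its probe was printed 10 times on each array. The mean over these spots stood at -4.96, -4.97 and -4.96 before and -5.26, -5.36 and -5.26 after heartbeat initiation. The groups did not overlap, with the post-heartbeat level the lower one. The log2 fold change was -0.33 (SE 0.13, 95% confidence interval -0.62 to -0.03), with an unadjusted p = 0.0352 and an adjusted p = 0.638 by limma. Blocking by slide gave -0.32 (limma adjusted p = 0.458), and the difference was -0.35 within slide 1 and -0.29 within slide 2. The change stayed under 1.5 fold, which kept Lpl out of the methods' selection. Within an array the 10 spots had a median SD of 0.21 log2 units. With normexp background correction the difference was -0.16, and the methods' test of Lpl, which is not an exact test, went from an unadjusted p = 0.000877 to 0.285.

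Of the pair of carnitine palmitoyltransferases at the outer membrane, only the muscle form was measured well above background. Cpt1b read 0.25, 0.22 and 0.42 on the pre-heartbeat arrays and 0.66, 1.06 and 1.07 on the post-heartbeat arrays. The groups did not overlap, and post-heartbeat replicate 1 was again the lowest of its group. The log2 fold change was 0.64 (SE 0.17, 95% confidence interval 0.25 to 1.03), from 0.29 ± 0.11 to 0.93 ± 0.23 (SD, n = 3 arrays each), with a limma adjusted p = 0.296. In the fit blocked by slide it was 0.68 (limma adjusted p = 0.103), and the difference was 0.62 within slide 1 and 0.75 within slide 2. Without post-heartbeat replicate 2 or without post-heartbeat replicate 3 the difference was 0.57, under 1.5 fold, and Cpt1b left the methods' selection. Its second probe was not well above background on any pre-heartbeat array and was well above it on 2 of 3 post-heartbeat arrays. It read far lower than the brighter probe, with group means of -6.72 and -5.755 against 0.29 and 0.93. Its means differed by 1.96-fold, higher in the post-heartbeat group. This fold is uncertain and the probe was not tested, since neither group read it well above background on every array. The tested result of Cpt1b thus rests on the brighter probe. The groups of this probe overlapped, since pre-heartbeat replicate 2 read -6.06 and post-heartbeat replicate 2 read -6.07 (exact permutation p = 0.2, two-sided). Cpt1a, the liver form, had 10 spots on each array and read between -8.29 and -7.67, not well above background on any array, so no fold change is given. Its absence cannot be concluded from 1 probe.

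The beta-oxidation enzymes among the 8 had small differences with overlapping groups. Acadm, the medium-chain acyl-CoA dehydrogenase, read 0.43, 0.79 and 0.60 on the pre-heartbeat and 0.73, 0.85 and 0.84 on the post-heartbeat arrays. The log2 fold change was 0.20 (95% confidence interval -0.15 to 0.55, limma adjusted p = 0.866), and 0.26 with the slide as a block (adjusted p = 0.697). Within slides it was 0.36 and 0.15. The difference was 0.12 without pre-heartbeat replicate 1 and 0.29 without pre-heartbeat replicate 2, the array with the highest pre-heartbeat value.
Acadvl, the very-long-chain acyl-CoA dehydrogenase, read -1.63, -1.07 and -1.49 on the pre-heartbeat and -1.31, -1.22 and -1.18 on the post-heartbeat arrays. Its log2 fold change was 0.16 (95% confidence interval -0.27 to 0.58, limma adjusted p = 0.866). Blocking by slide gave 0.23 (limma adjusted p = 0.867), and the difference was 0.37 within slide 1 and 0.10 within slide 2. Pre-heartbeat replicate 2 was the highest of the 6 arrays for this gene, so the groups overlapped. The difference was 0.32 without that array and 0.04 without pre-heartbeat replicate 1.
Hadha, the alpha subunit of the mitochondrial trifunctional protein, read -0.28, 0.05 and -0.29 on the pre-heartbeat and -0.03, -0.08 and -0.27 on the post-heartbeat arrays. Its log2 fold change was 0.05 (95% confidence interval -0.32 to 0.43, limma adjusted p = 0.935), and the second probe gave -0.12 (95% confidence interval -0.77 to 0.52). In the fit blocked by slide these were 0.04 and 0.09 (limma adjusted p = 0.9997 for both). The direction was not the same on both slides, with 0.23 within slide 1 and -0.14 within slide 2. By limma 0 of these 3 enzymes passed in either fit or with any 1 array left out, and 0 had an unadjusted p under 0.05 with all arrays.

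The regulators gave no group difference by limma without a block. Ppargc1a differed more between slides than between groups, with a mean of -4.34 on slide 1 and -3.28 on slide 2 (limma adjusted p = 0.0150 for the slides, where 3537 of 19299 probes passed). Slide 1 gave -4.73 for its 1 pre-heartbeat array, -4.26 for post-heartbeat replicate 1 and -4.02 for replicate 2. Slide 2 gave -3.19 and -3.56 for its pre-heartbeat arrays, against -3.10 for post-heartbeat replicate 3. The post-heartbeat arrays were thus the higher ones within each slide, by 0.59 on slide 1 and 0.28 on slide 2. Over all arrays the log2 fold change was 0.03 (SE 0.46, 95% confidence interval -1.05 to 1.12, limma adjusted p = 0.988). In the fit blocked by slide it was 0.43 (SE 0.17, 95% confidence interval 0.05 to 0.82), and its limma adjusted p = 0.421 missed the threshold. Ppara, the nuclear receptor, read between -7.97 and -5.95 and was not well above background on any array, so its group values have no order.

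**Figure D2:**
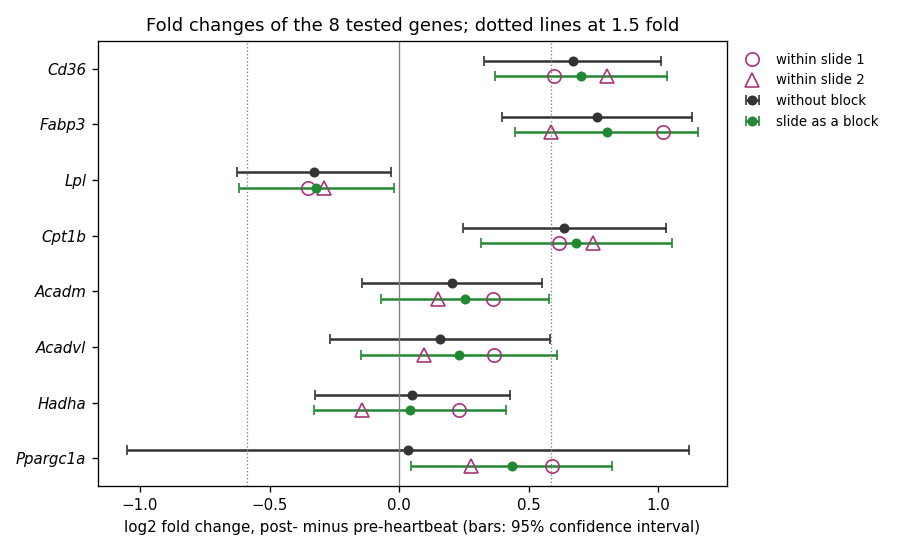
Log2 fold change, post-heartbeat minus pre-heartbeat, of the 8 tested genes by limma without a block (dark) and with the slide as a block (green), with bars for the 95% confidence interval and open symbols for the difference within each slide. The intervals of Cd36, Fabp3 and Cpt1b lay above 0 in both fits and that of Lpl below 0, and the interval of Ppargc1a narrowed from -1.05 to 1.12 without the block to 0.05 to 0.82 with it.

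The tissue under each label was checked with lists of marker genes, since a change in a bulk sample cannot tell fewer cells of a type from less RNA per cell. All 13 cardiac muscle markers were well above background on all 6 arrays, Myh6, Myh7, Actc1 and Tnnt2 among them. All 13 had a positive log2 fold change (median 0.62), and 5 of them were in the methods' selection, where 3.04% of all tested probes were. By limma 0 of them passed (7 at an unadjusted p under 0.05), and 3 passed with the slide as a block. The shares of all tested probes were 0.14%, 7.01% and 1.62%. The log2 of their summed level was 8.66 to 9.41 on the pre-heartbeat and 9.54 to 9.80 on the post-heartbeat arrays, without overlap, and pre-heartbeat replicate 1 had the lowest value as it did for Fabp3. The log2 fold changes of Cd36 (0.67), Fabp3 (0.76) and Cpt1b (0.64) lay near this median, and the part of cardiac muscle content in them was not tested.

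Lists for other cell types were read in the same way. By limma without a block, Otx2 of the neural ectoderm list passed and 0 of the tested genes of the endothelial, yolk sac, definitive endoderm, erythroid and paraxial lists did (2, 1, 2, 1 and 0 at an unadjusted p under 0.05). Of 9 endothelial and endocardial markers measured, 1 was higher in the post-heartbeat group without a block and 4 with the slide as a block, where Cldn5 fell (limma adjusted p = 0.0425). The log2 of their summed level was 4.24 to 4.29 on the pre-heartbeat and 3.79 to 3.92 on the post-heartbeat arrays. Kdr held 62.4% to 75.2% of this sum, and without it the sums overlapped, 2.27 to 2.59 against 2.27 to 2.38.

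Of 9 yolk sac and visceral endoderm markers measured, 2 were higher without a block and 0 when blocked by slide. Their summed level was 5.69 to 5.79 on the pre-heartbeat and 5.04 to 5.46 on the post-heartbeat arrays. Ttr held 60.0% to 85.3% of it, and without Ttr the sums overlapped, 2.93 to 4.42 against 3.12 to 3.91. The 8 definitive endoderm markers had a summed level of 2.51 to 2.58 and 2.07 to 2.23, with Shh and Spink1 not well above background on any array. Epcam held 38.2% to 47.1% of it, and without Epcam the sums were 1.67 to 1.81 against 1.24 to 1.49. Epcam and Cdh1 had groups that did not overlap (log2 fold changes -0.42 and -0.47). Those of Foxa1, Foxa2 and Cldn6 overlapped (-0.07, -0.14 and -0.12). Of the 5 tested, 0 were higher without a block and 1 with it.
Cd36 is known from endothelium and Lpl from several cell types, and the part of these cells in the results of Cd36 and Lpl was not tested. The erythroid list had a summed level of -2.27 to -1.69 on the pre-heartbeat and -1.77 to -1.48 on the post-heartbeat arrays, with Hbe1 and Gata1 not well above background on any array, and 1 of its genes (Epor) passed as higher when blocked by slide. The neural ectoderm list had 3.95 to 3.96 and 3.54 to 3.61. Otx2 fell (log2 fold change -1.56, limma adjusted p = 0.0199), and Pax3, which held the largest share of that sum, read 3.098 and 3.22 in the pre- and post-heartbeat groups. The paraxial mesoderm list had 3.76 to 4.01 and 4.0 to 4.15.

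**Figure D3:**
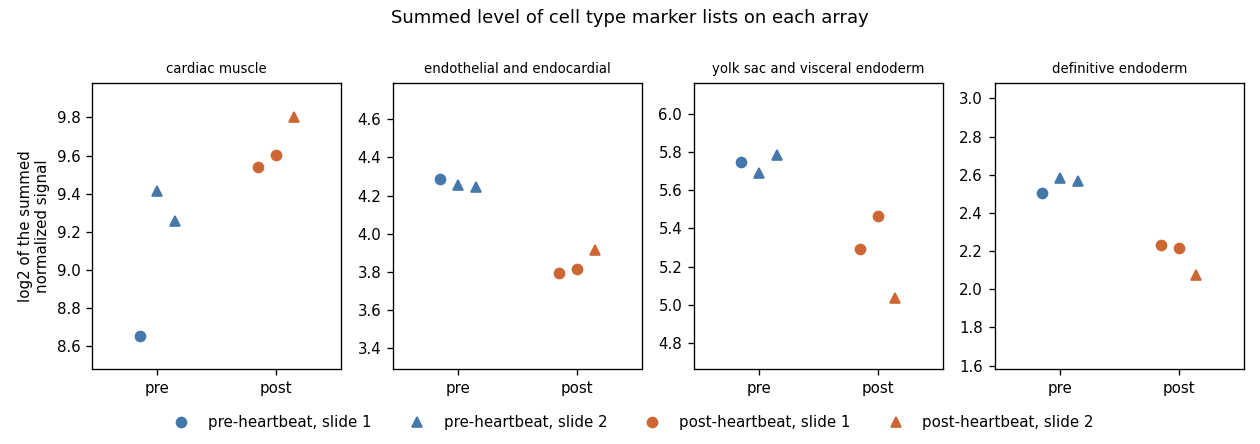
Log2 of the summed normalized signal of 4 marker lists on each array, with blue for the pre-heartbeat and orange for the post-heartbeat group, circles for slide 1 and triangles for slide 2. The cardiac muscle list was 8.66 to 9.41 before and 9.54 to 9.80 after heartbeat initiation, and the other 3 sums were lower on all 3 post-heartbeat arrays, with Kdr holding most of the endothelial and Ttr most of the yolk sac sum.

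The wider set of fatty acid genes held 145 genes in 10 roles, the 10 genes above included, of which 142 were on the array and 113 were tested. Of these, 76 (67.3%) were higher and 37 lower after heartbeat initiation, where 44.7% of all tested probes were higher. The median difference on the log2 scale was 0.10, or 0.13 with the slide as a block, against -0.03 and -0.02 over all tested probes. By limma 0 passed in either direction, where 0.14% of all tested probes did. At an unadjusted p under 0.05 there were 18 (14 higher and 4 lower), where 7.01% of all tested probes were. With the slide as a block 4 passed, all higher, where 1.62% of all tested probes did, 1.16% as higher. In the methods' selection there were 8 (7.08%), 7 higher and 1 lower, beside 3.04% of all tested probes. Of the 105 tested genes outside the 10, 5 were in the selection (4.76%). These lists too were chosen with earlier results of these data known, so the shares describe them and are not a test. They also set genes, each by its brightest probe, beside all tested probes, dimmer probes of a gene included. Abcd2, Ppargc1b and Cyp4a1 were tested only through the post-heartbeat group. Among the 110 genes well above background on all 6 arrays 73 were higher, with 7 in the selection, 6 higher and 1 lower. The share of all probes under that filter is not given, so these counts have no background beside them.

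By role, mitochondrial beta-oxidation had 21 of its 22 genes tested. In this role 15 were higher and 6 lower, the median log2 fold change was 0.07, 0 were in the methods' selection and 0 passed limma (2 at an unadjusted p under 0.05). The extremes were Hadh, the short-chain 3-hydroxyacyl-CoA dehydrogenase, at 0.43 (limma adjusted p = 0.483) and Acadsb, the short and branched chain acyl-CoA dehydrogenase, at -0.17 (adjusted p = 0.867), which was 0.01 when blocked by slide. The differences thus spanned less than the 1.5 fold of the selection in either direction. In the carnitine shuttle 4 of 8 tested genes were higher, the median was 0.02, and apart from Cpt1b the selection held none. Cpt2, the inner membrane enzyme, had the lowest value there, -0.25 (limma adjusted p = 0.866), and -0.17 with the slide as a block. In uptake and binding 7 of 12 tested genes were higher, with a median of 0.15. The lowest was Slc27a2, an acyl-CoA synthetase and transporter, at -0.47 (limma adjusted p = 0.694), with groups that did not overlap. Blocking by slide gave -0.56 for it (limma adjusted p = 0.224). Gpihbp1, which anchors Lpl on capillaries, and Fabp4 were not well above background on any array.

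Activation to acyl-CoA had 7 of 10 tested genes higher and a median of 0.08, between Acot2 at 0.31 and Acsm3 at -0.52 (limma adjusted p = 0.866 for both), which were 0.11 and -0.33 with the slide as a block. Peroxisomal oxidation had 8 of 12 higher and a median of 0.08, between Abcd2, a peroxisomal acyl-CoA transporter that was well above background on 2 of 3 pre-heartbeat arrays, at 0.53 and Abcd3, a related transporter, at -0.13 (limma adjusted p = 0.866 for both, and -0.07 for Abcd3 with the slide as a block). Neither role had a gene in the methods' selection. Ketone body use had 3 of 4 higher, between Oxct1 at 0.11 and Slc16a1 at -0.46.

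The 5 genes outside the 10 in the methods' selection belonged to the control of malonyl-CoA, to lipid storage, to the targets of PPAR receptors and to transcriptional control. Malonyl-CoA, the product of acetyl-CoA carboxylase, inhibits carnitine palmitoyltransferase, and the AMP-activated protein kinase restrains the carboxylase. Prkag2, a regulatory subunit of that kinase, read -2.01, -1.72 and -1.85 on the pre-heartbeat and -1.23, -0.98 and -0.89 on the post-heartbeat arrays. Its log2 fold change was 0.83 (limma adjusted p = 0.145), and with the slide as a block it rose by 0.90 (adjusted p = 0.0262). Prkaa1, a catalytic subunit, had the lowest value of this role at -0.44 (limma adjusted p = 0.866), and -0.27 with the slide as a block. In all, 9 of the 15 tested genes of this role were higher, with a median of 0.06.

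G0s2, an inhibitor of adipose triglyceride lipase, had the largest difference of the wider set. It read 1.38, 1.43 and 1.75 on the pre-heartbeat and 2.60, 3.08 and 3.12 on the post-heartbeat arrays. Its log2 fold change was 1.42 (limma adjusted p = 0.0732), and with the slide as a block it rose by 1.498 (adjusted p = 0.0113). Mogat1, an enzyme of triglyceride synthesis, was the 1 gene selected as lower, at -4.62, -4.20 and -4.68 before and -5.37, -5.08 and -5.59 after heartbeat initiation (log2 fold change -0.85, limma adjusted p = 0.241). In the fit blocked by slide it was -0.88 (limma adjusted p = 0.0942), with -0.61 within slide 1 and -1.15 within slide 2. With normexp background correction 0 genes of the wider set were selected as lower, so Mogat1 left the selection. Of 9 tested genes of lipid storage and lipolysis, 8 were higher and the median was 0.18.

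Vnn1, a pantetheinase and known PPAR target, read -2.63, -2.32 and -2.57 on the pre-heartbeat and -1.93, -1.57 and -1.47 on the post-heartbeat arrays. Its log2 fold change was 0.85 (limma adjusted p = 0.178), and with the slide as a block it rose by 0.93 (adjusted p = 0.0359). Txnip had the lowest value among the PPAR targets, -0.78 (limma adjusted p = 0.534), and -0.56 with the slide as a block (adjusted p = 0.132). Of the 7 tested targets 5 were higher, with a median of 0.52. Without Cyp4a1, which was well above background on 0 pre-heartbeat arrays and 3 post-heartbeat arrays, 4 of 6 were higher with a median of 0.31. The targets Pdk4, Ucp3, Plin5 and Fgf21 were not well above background on any array, as was Ppara.

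Among the transcriptional regulators 10 of 15 tested genes were higher, with a median of 0.20, and without Ppargc1b 9 of 14 with a median of 0.12. Ppargc1b, a coactivator related to Ppargc1a, read -5.0, -5.74 and -4.68 on the pre-heartbeat arrays, well above background on 2 of the 3, and -4.01, -4.04 and -3.95 on the post-heartbeat arrays. Its log2 fold change was 1.14 (limma adjusted p = 0.237, and 0.114 with the slide as a block), and it was the regulator in the methods' selection. Its pre-heartbeat mean includes an array not well above background, so this fold is uncertain. A filter to genes well above background on all 6 arrays leaves it out before any test. Rxrg, a partner receptor of the PPARs, had the highest value of this role at 1.20 with a limma adjusted p = 0.656, and Med1, a subunit of the Mediator complex, the lowest at -0.49 (adjusted p = 0.866). The difference of Rxrg was 0.21 within slide 1 and 1.51 within slide 2, and Med1 was -0.28 with the slide as a block.

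**Figure D4:**
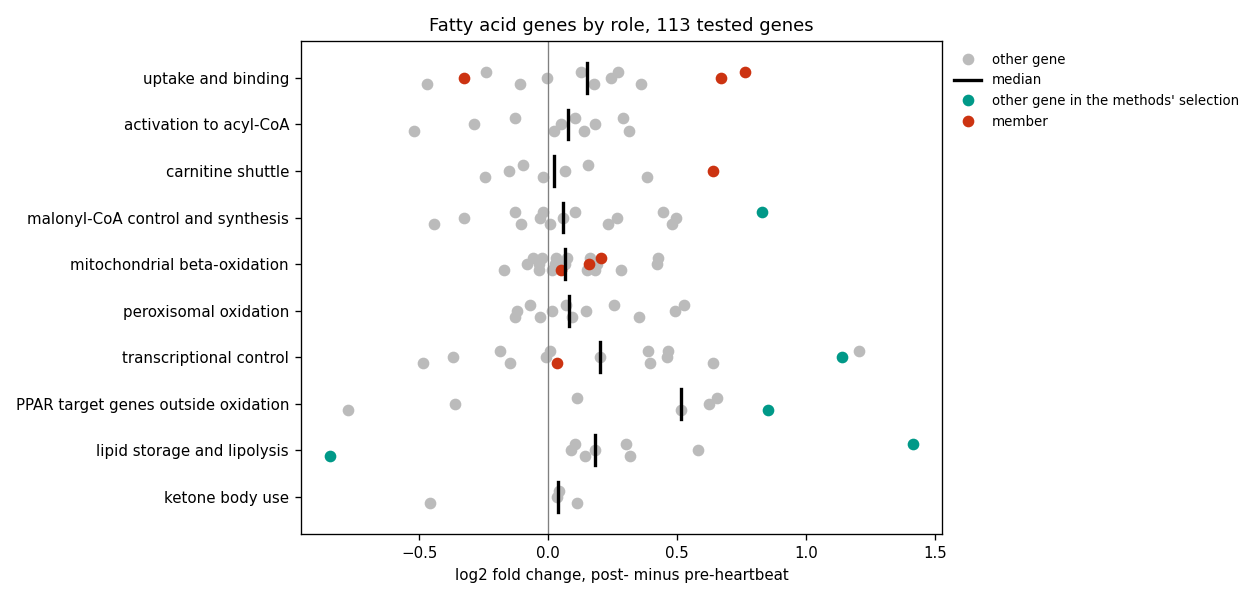
Log2 fold change, post-heartbeat minus pre-heartbeat, of the 113 tested fatty acid genes by role, with red for the 8 tested genes chosen by name, teal for the 5 other genes in the methods' selection, grey for the rest and a line for the median of each role. The 21 beta-oxidation genes lie between -0.17 and 0.43, and G0s2 is the highest point at 1.42.

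The genes whose pattern over the 6 arrays was most like that of Fabp3 were found by the root mean square difference of the levels, each centred on its mean over the arrays. Among 15083 other tested probes with a gene name, Rec8, a meiotic cohesin subunit, was nearest (0.0585 log2 units), followed by Rassf5, which carries a Ras association domain (0.0643), and Cdkn2b, an inhibitor of cyclin-dependent kinases (0.0711). Their log2 fold changes were 0.71, 0.78 and 0.71.

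The RefSeq table of promoters held 8 of the 10 genes, Cpt1a and Ppara included, and had no entry for Lpl and Cpt1b. Its 250 bases before the start were searched on both strands of the GRCr8 build. Those of Cd36 and Fabp3 are shown because these genes were higher together, and that of Ppargc1a because it holds a cyclic AMP response element. Capitals mark the letters of a motif searched.
Cd36 promoter, chr4:18246332-18246581, + strand: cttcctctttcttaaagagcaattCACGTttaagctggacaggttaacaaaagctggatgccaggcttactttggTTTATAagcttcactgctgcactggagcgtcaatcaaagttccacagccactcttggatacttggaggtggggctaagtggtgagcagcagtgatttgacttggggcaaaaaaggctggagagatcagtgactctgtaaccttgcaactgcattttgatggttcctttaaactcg
Fabp3 promoter, chr5:147935875-147936124, + strand: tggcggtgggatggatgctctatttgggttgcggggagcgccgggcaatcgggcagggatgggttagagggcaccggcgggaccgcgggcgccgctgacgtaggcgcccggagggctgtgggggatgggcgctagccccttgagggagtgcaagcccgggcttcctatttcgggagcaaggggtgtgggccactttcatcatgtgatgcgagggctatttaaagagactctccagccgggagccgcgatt
Ppargc1a promoter, chr14:63634058-63634307, + strand: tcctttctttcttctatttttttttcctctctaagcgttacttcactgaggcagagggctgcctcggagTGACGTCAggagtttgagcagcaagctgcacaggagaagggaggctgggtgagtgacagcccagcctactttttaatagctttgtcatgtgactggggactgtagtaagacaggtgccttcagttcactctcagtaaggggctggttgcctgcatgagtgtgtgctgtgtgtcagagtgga
The capitals in the Cd36 promoter are ACGTG, searched as the core of the hypoxia response element, and TATAAA, searched as the TATA box. Both are read on the opposite strand, 226 and 175 bases before the start, and other forms of these elements were not searched. The capitals in the Ppargc1a promoter are TGACGTCA, the cyclic AMP response element, and Fabp3 has none. The element TGACGTCA was also in the promoter of Acadm, and 1.59% of 33469 promoters of the same length hold it. AGGTCA, an element bound by nuclear receptors, was in 1 of these 8 promoters (Acadvl) and in 14.1% of all promoters. Its direct repeat AGGTCANAGGTCA, which contains that element, was in 0 of these 8 promoters and in 0.0508% of all. TATAAA was in 12.9% of all promoters and ACGTG in 16.6%. GGGCGG, the GC box, was in 2 of these 8 promoters (Hadha and Ppara) and in 30.5% of all. A match is a description of these letters and not a binding site, and no match says only that the letters are not in this window.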

How the data were processed

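Total RNA of 3 pre-heartbeat and 3 post-heartbeat samples of heart primordium was hybridized to 1-color Agilent arrays by the authors, who deposited for each spot an intensity processed by Feature Extraction 10.7.3.1, with background subtracted and no normalization between arrays. They also deposited ratios made with GeneSpring, used as an alternative; differences between arrays were within 0.01 of those of the intensities for 100% of 30367 probes once a constant for each pair of arrays had been removed.

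Log2 intensities, less the 75th percentile over all non-control spots, were averaged over the spots of a probe without outlier spots. Groups were compared with limma 3.58.1 in R 4.3.3, with Benjamini-Hochberg adjustment over all tested probes and a threshold of 0.05. Slide or replicate number as a block, other background corrections, normalizations, percentiles and filters, the authors' ratios, an intensity trend, 2 fold, and leaving out each array were alternatives. The procedure was tested on simulated data. The members and lists were chosen with earlier results of these data known, and the percentile was settled after both versions had been seen. Named genes of the wider set are those in the methods' selection, past the limma threshold in either fit, or highest or lowest in a role. Names given on the array were used, and 18006 probes (59.3%) matched a RefSeq gene.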

Additional observations from a re-analysis of the deposited data

How the results depend on the processing

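The fold changes of the 8 tested genes were recomputed in 144 combinations of gene and setting. In 136 the direction and the side of the threshold were those reported, in 1 (Fabp3 with the slide as a block, log2 fold change 0.80) the threshold was passed, and in 7 the direction turned. These concerned Ppargc1a (-0.0027 with normexp and -0.0053 with quantile normalization, and -0.42 to 0.35 when 1 array was left out, lowest without pre-heartbeat replicate 1) and Hadha (-0.035 with the mean of its probes, and -0.0074 to 0.16 when 1 array was left out). Cd36, Fabp3 and Cpt1b were higher and Lpl was lower in all settings run, though Lpl was at -0.16 with normexp. When 1 array was left out Acadm ranged from 0.12 to 0.29 and Acadvl from 0.04 to 0.32, both lowest without pre-heartbeat replicate 1 and highest without pre-heartbeat replicate 2, where the methods' unadjusted test, which is not an exact test, gave p = 0.0352 and p = 0.0216. The cause was not tested.

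The 27 probes past the limma threshold became 312 with the slide as a block, 292 with the slide as a block and the 75th percentile without outlier spots (chosen after seeing the data), 50 with normexp, 14 with quantile normalization, 45 with an intensity trend, 13 with the ratios of the authors, 1 with no filter on dim probes, where more probes were tested, and 0 by the methods' test with adjustment (smallest adjusted p = 0.101, 1319 probes at an unadjusted p under 0.05). Leaving out 1 array gave 0 to 2. Of the 10 genes, the number past the threshold was 1 with the slide as a block and 0 in the other settings. The methods' selection held 3 of them, 0 at 2 fold, and 2 or 3 when 1 array was left out (Cpt1b was lost without post-heartbeat replicate 2 or 3). It held 8 genes of the wider set, 2 at 2 fold, 10 with the limma p in the selection, and 6 with normexp, all higher. When 1 array was left out it held 6 to 13, with 13 without pre-heartbeat replicate 1. Among probes well above background on all 6 arrays it held 7, since that filter leaves Ppargc1b out before any test. Shares of all probes in the selection are not given for these settings, so the counts have no background beside them.

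With the replicate number as a block, 144 probes and 0 of the 10 genes passed limma, and 3 were in the selection. The numbers do not mark a known pairing. Deviations from the group means correlated by 0.648 for number 1, -0.277 for number 2 and 0.494 for number 3, and arrays of numbers 1 and 3 shared a slide while those of number 2 did not.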
